A study of Bos taurus with 36 samples.

Results

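The 10 genes described here encode the main enzymes and the main transcription factor of fatty acid and triglyceride synthesis: FASN, ACACA, ACLY, SCD, ELOVL6, SREBF1, FADS1, FADS2, GPAM and DGAT2. They were chosen by name, as the rows of the deposited count table whose Entrez gene carries one of these symbols in the bovine RefSeq annotation, and all 10 were found among the 35092 genes of the table. The choice was made with earlier results of these data known. The study sequenced 36 RNA libraries, from heart, gonads and liver of 10 male cattle fetuses collected at Day 42 and from whole blood of their recipient heifers. Every heifer had received a Day 7 embryo, 5 of them on Day 7 of their cycle (ET_D7, the synchronous transfer) and 5 on Day 9 (ET_D9, the asynchronous transfer), and the fetuses had been picked for divergent weight. The heifers' age is not given in the sources used here. No genotype or other treatment separated the animals. Numbers follow the order of fetal weight, with fetus 1 the lightest (1.253 g) and fetus 10 the heaviest (1.69 g). Fetuses 1 to 5 (1.253 to 1.37 g) were all ET_D7 and fetuses 6 to 10 (1.396 to 1.69 g) were all ET_D9, so fetal weight and transfer group cannot be told apart between these groups. Heart libraries were present for 9 fetuses (not fetus 7), gonad libraries for 9 (not fetus 2), liver libraries for 8 (not fetuses 6 and 7) and maternal blood libraries for all 10.

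Fatty acids are made in the cytosol from acetyl-CoA. ACLY splits citrate to release that acetyl-CoA, ACACA carboxylates it to malonyl-CoA, FASN builds palmitate from both, ELOVL6 lengthens palmitate, SCD introduces the first double bond, and FADS1 and FADS2 desaturate polyunsaturated fatty acids. GPAM starts and DGAT2 completes the joining of fatty acids to glycerol as triglyceride, and SREBF1 encodes the SREBP-1 factors that switch on much of the pathway. The liver is a classical site of this synthesis, and in the fetus it is also the organ in which red blood cells form.

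Total counts ranged from 18231089 to 40812354 per library, and the members held between 18 counts (FADS2 in a blood library) and 10154 counts (DGAT2 in another). The liver libraries labelled fetus 1 and fetus 2 were not independent of each other. The per-gene chi-square statistic between them had a median of 0.118, below the 0.455 of sampling noise, against 0.811 to 71.8 in the other 144 pairs of libraries of the same tissue, although some genes differed more and the mean was 4.69. All 3142 genes with at least 1000 counts in the library of fetus 1 were higher in that of fetus 2, with a median ratio of 1.05. The members had ratios of 1.043 to 1.148. Both were therefore counted as 1 liver sample with their mean counts and mean weight (1.273 g), which left 7 liver samples and 25 organ samples. Mitochondrially encoded genes held 17.1 to 57.3% of the counts in heart, 16.3 to 36.8% in liver and 3.31 to 7.23% in the libraries labelled gonads. Cell type markers fitted the heart label (8 of 8 cardiomyocyte markers highest in heart) and the liver label (8 of 8 hepatocyte markers and 9 of 9 erythroid markers highest in liver). The libraries labelled gonads did not show their label's markers. Sertoli cell markers summed to 3.34 to 8.97 CPM (counts scaled by library size) against 8.14 to 14.5 CPM in the heart, and none of the 5 was highest there, nor was any of 5 Leydig cell and 4 germ cell markers. By contrast, 7 of 8 markers of the mesonephros were highest there and summed to 276 to 322 CPM, against 5.73 to 15.8 CPM in the heart and 121 to 282 CPM in the liver, where the remaining one, CDH16, had a mean of 155 CPM. These are called the libraries labelled gonads below. In the liver samples, cardiomyocyte markers summed to 27.6 to 2059 CPM, against 38369 to 55795 CPM in the heart. The highest liver sum, in fetus 3, was mostly ACTC1, a heart muscle actin, at 1899.8 CPM. That sample was also the highest liver sample for TNNT2 (34.7 CPM), MYH7 (56.5 CPM), MYL7 (11.4 CPM) and RYR2 (55.8 CPM). ACTC1 was at 634 CPM in fetus 4 and at 356 CPM in fetus 5. NPPA was at 0 and MYL3 and MYH6 were at 1.92 CPM or less in each liver sample. Whether liver samples held heart tissue was not tested. Leaving out any 1 fetus, fetus 3 included, left 8 members called higher in liver.

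The first comparison asked in which fetal organ each gene was most expressed. Relative to the other 2 organs, 8 of the 10 members were higher in the liver, against 22.9% of the 25087 genes tested, 2 were higher in the libraries labelled gonads (background 14.8%), and none was higher in the heart (background 11.0%). The 25087 genes were all those with a count in any organ sample, so they include genes near 0. Of these, 19549 reached 10 counts in 4 or more samples, and the shares were not counted among those alone. Because the members were chosen with earlier results of these data known, their counts are a description and not independent support for a liver pattern. SREBF1 and DGAT2 stood furthest from the other organs, and ACLY and FADS1 were the exceptions to the liver pattern. The call of a higher organ required a positive log2 fold change and an adjusted p under 0.05 against each of the others, in edgeR's quasi-likelihood test with Benjamini-Hochberg adjustment over all genes, which is the source of every adjusted p below. Levels are CPM after TMM scaling, which corrects for differing library composition, over the 25 organ samples. Composition weighed on these comparisons, since the top 20 genes held a median of 43.5% of the counts in heart, 33.6% in liver and 8.0% in the libraries labelled gonads. Without the composition factor, all genes shifted by a median of -1.02 on the log2 scale between liver and the libraries labelled gonads and by 0.0024 between liver and heart (0.17 in both with DESeq2 size factors), and the number of members called higher in liver dropped from 8 to 4 (SCD, SREBF1, GPAM and DGAT2), against 15.4% of all genes at that scaling. Against the heart alone, 8 members were higher in the liver (background 30.3%) and none lower (27.1%), and the samples of 8 did not overlap (26.1%). Against the libraries labelled gonads, 8 were higher in the liver (33.5%) and 2 lower (30.1%), and 5 did not overlap (31.5%). From heart to the libraries labelled gonads, 4 were higher in the latter (23.3%) and 2 lower (23.7%), and 5 did not overlap (23.1%). A difference from organ A to organ B is given as A minus B on the log2 scale. The median difference of the members from liver to heart was 1.35, against 0 over all genes. From liver to the libraries labelled gonads it was 0.99, also against 0. The medians over all genes include the genes near 0 as well, and were not taken without them. Adipocyte markers, of which LEP was at 0 in every organ sample and FABP4 at 0 in the liver, summed to 5.08 to 22.9 CPM in the liver, 3.24 to 5.21 CPM in the heart and 1.73 to 3.11 CPM in the libraries labelled gonads, and their part in the organ differences was not tested. In such bulk samples, more cells of a type and more RNA per cell cannot be told apart.

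**Figure D1:**
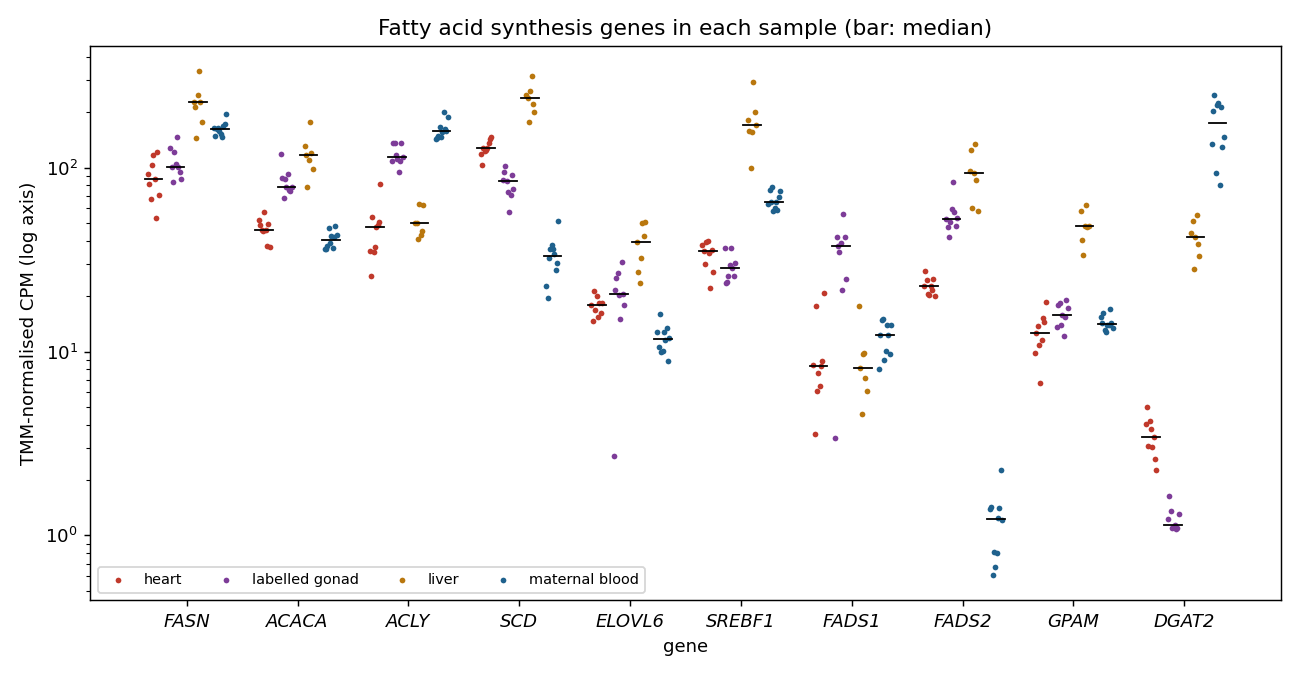
Level of each gene in every sample (points), as TMM-normalised CPM on a log axis, in heart (n = 9), libraries labelled gonads (n = 9), liver (n = 7) and maternal blood (n = 10), with the median as a bar. Blood was scaled by itself and made with another kit, so its levels are only set beside those of the organs. DGAT2 lay between 28.0 and 55.1 CPM in the liver and between 1.08 and 4.97 CPM in the other organs.

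Of the enzymes that make palmitate, FASN and ACACA were highest in the liver and ACLY was not. FASN had a lowest, median and highest level of 145, 226 and 335 CPM in the liver, of 53.5, 86.8 and 121 CPM in the heart and of 83.8, 101 and 147 CPM in the libraries labelled gonads. Every liver sample was above every heart sample, whereas the lowest liver sample (fetus 4) fell below the highest of the libraries labelled gonads. The FASN difference was 1.35 ± 0.17 (log2, SE) from liver to heart (adjusted p = 9.6e-08) and 1.06 ± 0.17 from liver to the libraries labelled gonads (adjusted p = 3.8e-06), and it shrank to 0.031 (adjusted p = 0.893) in the latter when library totals alone were used. Heart and libraries labelled gonads did not differ beyond their spread in FASN. The latter minus the former was 0.29 ± 0.16 (adjusted p = 0.138), although library totals alone gave 1.37 (adjusted p = 5.1e-08).

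ACACA, which makes malonyl-CoA, had 79.0, 118 and 178 CPM (lowest, median, highest) in the liver, 68.8, 78.4 and 119 CPM in the libraries labelled gonads and 37.0, 46.0 and 57.6 CPM in the heart. The heart samples lay below all samples of the other organs, and liver and the libraries labelled gonads overlapped. The liver was higher than the heart by 1.36 ± 0.14 (adjusted p = 1.6e-09). Against the libraries labelled gonads it was higher by 0.49 ± 0.13 (adjusted p = 0.0025) with TMM scaling and lower, at -0.54 (adjusted p = 0.0024), with library totals alone, so that direction depended on the scaling.

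ACLY, the citrate-splitting enzyme, was highest in the libraries labelled gonads, at 94.4, 114 and 137 CPM, with every one of those samples above every other organ sample, as in 6.47% of all genes. Heart (25.7, 47.3 and 81.8 CPM) and liver (40.98, 49.9 and 63.3 CPM) overlapped. The difference from liver to the libraries labelled gonads was -1.22 ± 0.17 (adjusted p = 5.5e-07), and that from liver to heart was 0.14 ± 0.17 (adjusted p = 0.507). Within the heart ACLY had a 3.18-fold range, with the lowest value in fetus 2 and the highest in fetus 10.

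SREBF1, the regulator, was one of 4 members, with SCD, GPAM and DGAT2, in which every liver sample exceeded every sample of both other organs, against 9.77% of all genes. Its levels were 100.1, 169.8 and 293 CPM in the liver, 22.2, 35.4 and 40.1 CPM in the heart and 23.5, 28.6 and 36.7 CPM in the libraries labelled gonads. The liver was higher by 2.42 ± 0.16 than the heart (adjusted p = 5.6e-13) and by 2.64 ± 0.16 than the libraries labelled gonads (adjusted p = 9.4e-14). The libraries labelled gonads minus heart gave -0.21 ± 0.15 (adjusted p = 0.249), which became 0.87 (adjusted p = 1.9e-05) with library totals alone.

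SCD, the stearoyl-CoA desaturase, had 176, 239 and 316 CPM in the liver, 103, 127 and 147 CPM in the heart and 57.6, 84.5 and 102 CPM in the libraries labelled gonads. The 3 organs did not overlap, but the lowest heart sample (102.99 CPM) was barely above the highest of the libraries labelled gonads (102.41 CPM). Overlap was not checked with library totals alone. The liver was higher than the heart by 0.89 ± 0.12 (adjusted p = 2.9e-07) and than the libraries labelled gonads by 1.54 ± 0.12 (adjusted p = 9.5e-12). The libraries labelled gonads were lower than the heart by TMM scaling (-0.64 ± 0.11, adjusted p = 2.5e-05), with the sign turned at 0.38 (adjusted p = 0.0549) when library totals alone were used.

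ELOVL6, which lengthens palmitate, had 23.7, 39.5 and 50.4 CPM in the liver, 14.7, 17.96 and 21.3 CPM in the heart and 2.697, 20.4 and 30.7 CPM in the libraries labelled gonads. All liver samples were above all heart samples (1.10 ± 0.27, adjusted p = 0.00086). The liver exceeded the libraries labelled gonads by 0.92 ± 0.26 (adjusted p = 0.0037) with TMM scaling, but with library totals alone the difference was -0.10 (adjusted p = 0.785).

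The FADS genes went different ways. FADS2, the delta-6 desaturase, had 58.4, 93.2 and 135 CPM in the liver, 42.1, 52.6 and 83.4 CPM in the libraries labelled gonads and 19.9, 22.7 and 27.3 CPM in the heart, so that the heart lay below all other samples. The liver was higher than the heart by 2.04 ± 0.16 (adjusted p = 6.7e-12) and than the libraries labelled gonads by 0.77 ± 0.15 (adjusted p = 8.9e-05), the latter turning to -0.27 (adjusted p = 0.160) with library totals alone. FADS1, the delta-5 desaturase, was instead highest in the libraries labelled gonads, at 3.41, 37.5 and 56.3 CPM, against 3.57, 8.37 and 20.7 CPM in the heart and 4.55, 8.13 and 17.6 CPM in the liver. The FADS1 difference from the libraries labelled gonads was 1.77 ± 0.37 to the heart (adjusted p = 0.00021) and, as liver minus gonads, -1.89 ± 0.40 (adjusted p = 0.00020), while liver and heart did not differ beyond their spread (-0.12 ± 0.38, adjusted p = 0.839, and 0.059 with DESeq2 size factors). FADS1 and FADS2 overlap each other in the RefSeq annotation (assembly ARS-UCD2.0), and the option for strand in the authors' counting is not given in the sources used here, so the split of reads between them is uncertain.

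Both acyltransferases of triglyceride synthesis were highest in the liver. DGAT2, which adds the last fatty acid, had 28.0, 41.8 and 55.1 CPM in the liver, 2.27, 3.41 and 4.97 CPM in the heart and 1.08, 1.14 and 1.63 CPM in the libraries labelled gonads. It had the largest organ differences of the 10 genes, with 11.99-fold more in liver than heart (log2 3.58 ± 0.17, adjusted p = 5.5e-16) and 33.8-fold more than in the libraries labelled gonads (5.08 ± 0.19, adjusted p = 1.1e-18). The libraries labelled gonads were also below the heart with no overlap (-1.49 ± 0.16, adjusted p = 1.1e-08). GPAM, which attaches the first fatty acid, had 33.6, 48.2 and 62.9 CPM in the liver, 12.2, 15.9 and 19.1 CPM in the libraries labelled gonads and 6.76, 12.5 and 18.7 CPM in the heart. The liver was higher by 1.94 ± 0.16 than the heart (adjusted p = 5.8e-11) and by 1.61 ± 0.16 than the libraries labelled gonads (adjusted p = 1.7e-09). For GPAM the libraries labelled gonads exceeded the heart by 0.33 ± 0.15 (adjusted p = 0.0733), pairing the libraries by fetus took this to 0.41 (adjusted p = 0.0379), and library totals alone to 1.32 (adjusted p = 8.2e-06).

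**Figure D2:**
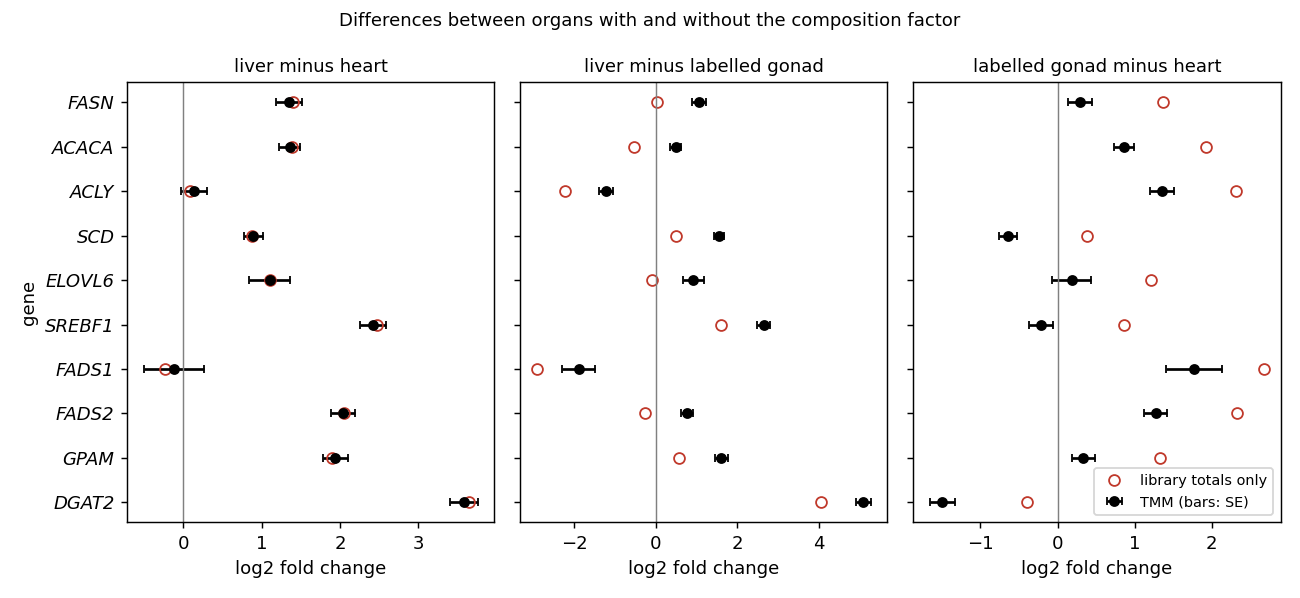
Log2 fold change between organs for each gene, with TMM scaling (filled points, bars are the SE) and with library totals only (open points). From liver to heart both scalings lie together, with DGAT2 at 3.58, whereas from liver to the libraries labelled gonads the open points are lower, with ACACA at 0.49 under TMM and -0.54 under library totals.

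Within the libraries labelled gonads, the library of fetus 1 stood apart in ELOVL6 and FADS1. ELOVL6 was at 2.697 CPM there and at 15.0 CPM or more in the other 8 libraries, and FADS1 was at 3.41 CPM there and at 21.5 CPM or more in the others. With libraries of this tissue scaled by themselves, it was 5.91-fold below the lowest other library in ELOVL6 and 6.73-fold below in FADS1, a gap of over 4-fold that 4.14% of the 17809 genes tested showed. The other 8 members of that library were not below the lowest of the other libraries, and its ACACA level (119 CPM) was the highest of the 9. Without it, the difference in ELOVL6 from liver to the libraries labelled gonads was 0.77 (adjusted p = 0.00018) and that in FADS1 was -2.04 (adjusted p = 4.7e-06), so both calls were kept.

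**Figure D3:**
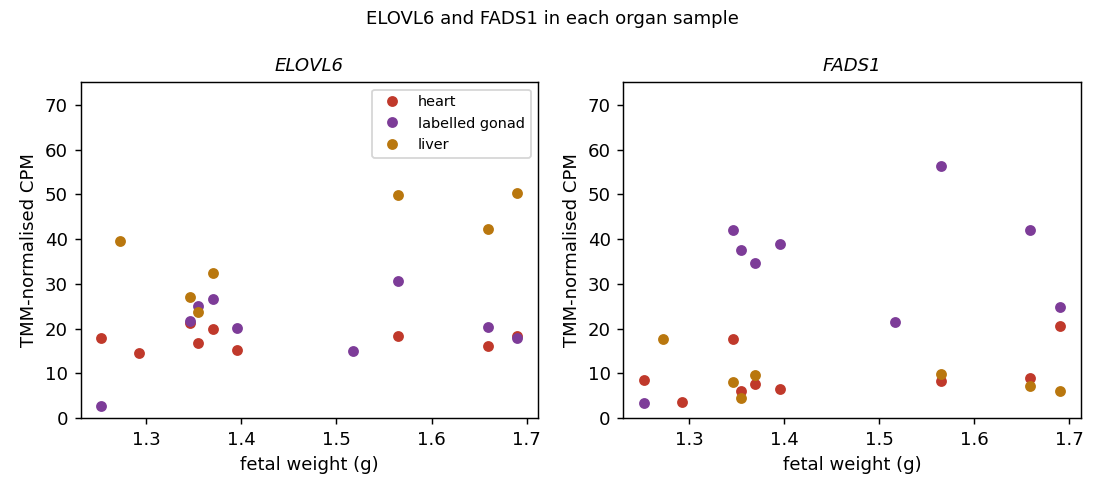
ELOVL6 and FADS1 in each organ sample (points) as TMM-normalised CPM against fetal weight in g. The library labelled gonad of fetus 1, the lightest, lies at 2.697 CPM in ELOVL6 and 3.41 CPM in FADS1, below the other 8 libraries with that label.

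The levels in maternal blood are given without a test, because another library kit was used and the blood libraries were scaled by themselves. DGAT2 had a lowest, median and highest level of 80.4, 174 and 247 CPM, a 3.07-fold range between heifers, and each of these 10 values was above the 28.0 to 55.1 CPM of the fetal liver. FASN had 147, 163 and 196 CPM, ACLY 143, 157 and 202 CPM and SREBF1 58.0, 65.2 and 78.4 CPM. ACACA, SCD, GPAM, FADS1 and ELOVL6 had medians of 40.5, 33.1, 14.2, 12.3 and 11.7 CPM. FADS2 was between 0.61 and 2.26 CPM, where each organ sample had 19.9 CPM or more. Cardiomyocyte markers summed to 0.44, 1.87 and 3362 CPM (lowest, median, highest) in blood. Mesenchymal markers summed to 2.40, 13.8 and 520 CPM. The part of these transcripts in the blood levels and slopes was not tested.

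The second question was whether these genes followed fetal weight in the liver. None of the 10 members passed, either in the test of a smooth curve (a natural cubic spline, adjusted p under 0.05 in 1.71% of the 16211 genes tested) or in the test of a straight line (1.55% of genes), and none had an unadjusted p under 0.05 in either, which 10.7% and 12.7% of genes had. DESeq2 gave 1 member, ELOVL6, an unadjusted p under 0.05 for the line (0.0421) and 2 members for the curve, with none passing after adjustment. The share of all genes at that unadjusted p was not counted for DESeq2. It called more genes than edgeR after adjustment, 617 against 251 for the line and 1011 against 278 for the curve. The slopes lay between -0.21 and 0.14 on the log2 scale per 0.1 g, with 5 positive and 5 negative and a median of -0.0073, where 46.9% of all genes were positive, and the signs of ACLY and SCD turned with library totals alone (0.028 and 0.0011). Levels in this section are CPM scaled within the liver. The liver weights fall into a light and a heavy cluster that are also the transfer groups, 4 samples at 1.273 to 1.37 g and 3 at 1.565 to 1.69 g, so no pooled correlation is given.

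ELOVL6 came closest to rising with weight. Along the 7 liver samples from the lightest to the heaviest, its levels were 31.1, 22.8, 20.5, 25.9, 33.9, 34.9 and 37.4 CPM. The 3 ET_D9 samples were above the 4 ET_D7 samples, and it was the only member whose transfer groups did not overlap, as in 15.6% of all genes. The slope was 0.14 ± 0.063 per 0.1 g (95% interval -0.0037 to 0.28, p = 0.0551 and adjusted p = 0.407 in edgeR). With transfer group as a covariate it was -0.13 ± 0.21 (adjusted p = 0.960 in edgeR).

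FADS1 had the most negative slope, at -0.21 ± 0.12 per 0.1 g (95% interval -0.48 to 0.052, adjusted p = 0.509). Its levels in the same order were 13.9, 6.84, 3.94, 7.70, 6.68, 5.92 and 4.55 CPM. The sample of fetuses 1 and 2 was highest, the others lay between 3.94 and 7.70 CPM with the transfer groups overlapping, and without that sample the slope was -0.061. SREBF1 levels were 143, 133, 86.5, 124, 199, 166 and 126 CPM, highest in fetus 8 and lowest in fetus 4, with a slope of 0.096 ± 0.080 (95% interval -0.083 to 0.27, adjusted p = 0.684).

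The remaining members had slopes between -0.092 (FADS2) and 0.0028 (GPAM). For FASN, whose slope was 2.4e-05 ± 0.077, the 95% interval without transfer group in the fit was -0.17 to 0.17 per 0.1 g. In the same fit it was -0.16 to 0.16 for ACACA, -0.16 to 0.13 for ACLY, -0.18 to 0.10 for SCD, -0.30 to 0.12 for FADS2, -0.13 to 0.14 for GPAM and -0.23 to 0.10 for DGAT2. Within transfer groups, with the group as a covariate, 9 of the 10 slopes were negative and that of ACLY positive (0.38 ± 0.20), with adjusted p of 0.939 or more for each. These slopes were larger in size than those without the covariate in 9 members, such as FASN at -0.35 ± 0.25 and ACACA at -0.44 ± 0.20. Of all genes, 51.8% had a positive slope in that fit.

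**Figure D4:**
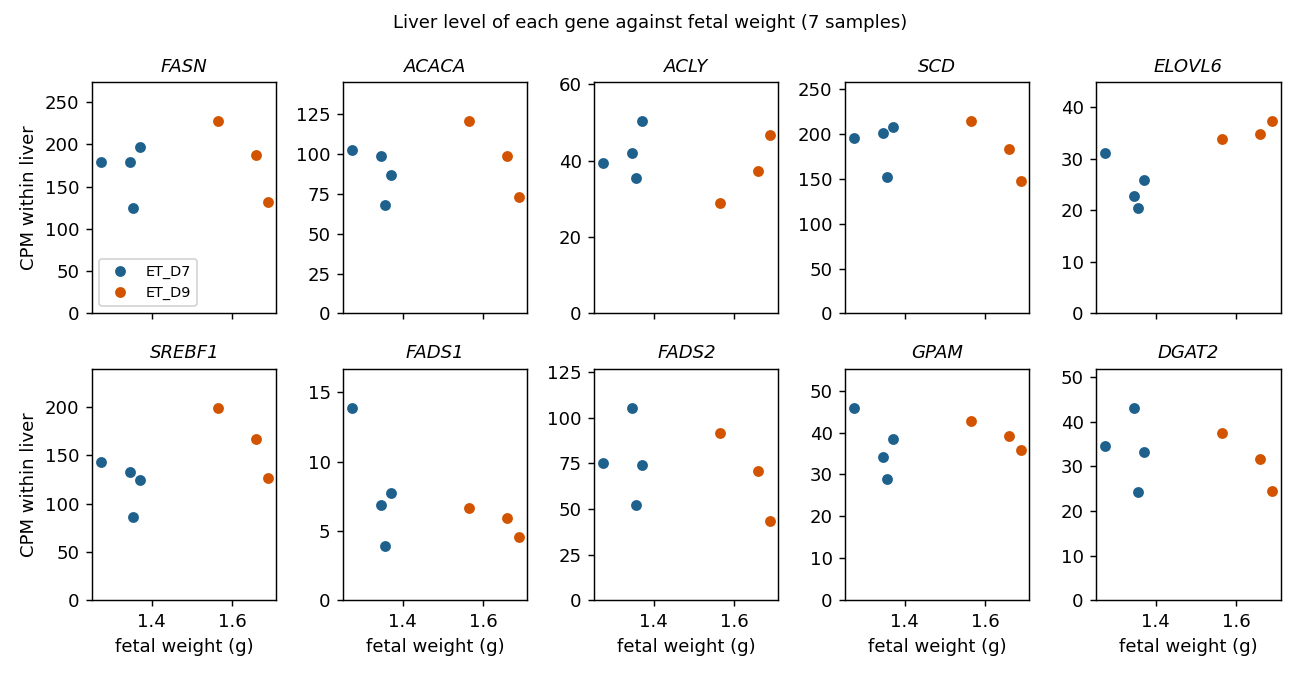
Level of each gene in the 7 liver samples (points), as CPM scaled within the liver from 0, against fetal weight in g, with the transfer group as colour. ELOVL6 is at 33.9 to 37.4 CPM in ET_D9 and 20.5 to 31.1 CPM in ET_D7, while the groups overlap in the other 9 genes.

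The members varied between liver samples by 1.45-fold (SCD) to 3.53-fold (FADS1), and some samples were low or high in several members. Fetus 4 (1.355 g) was below the median in all 10 members and lowest in 7 of them, and fetus 10 (1.69 g) was below the median in 8. Fetus 8 (1.565 g) was highest in 4 members, FASN, ACACA, SCD and SREBF1, and lowest in ACLY. The share of all genes with such ranks in these samples was not counted, so the ranks are not read as particular to the members. The summed hepatocyte markers were lowest in fetuses 4 and 10, at 12323 and 13393 CPM, and highest in fetus 8, at 19263 CPM. The summed erythroid markers went the other way, at 6106 and 6150 CPM in fetuses 4 and 10 and at 4447 CPM in fetus 8. The other 4 samples lay between these values in both sums. Fetuses 4 and 10 were not alike in the other marker lists. Macrophage markers summed to 233 CPM in fetus 4, 132 CPM in fetus 10 and 157 CPM in fetus 8. Mesenchymal markers summed to 491, 258 and 336 CPM in the same order, and endothelial markers to 165, 141 and 196 CPM. The part of these cell type markers in the members' levels was not tested.

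Outside the liver the members were tested for a slope in each tissue by itself, to see where else they varied with weight. No member passed at an adjusted p under 0.05 in heart (background 6.77% of 16250 genes), in the libraries labelled gonads (0% of 17809 genes) or in maternal blood (0% of 16284 genes). In the heart 4 members had an unadjusted p under 0.05, against 29.1% of all genes. ACLY had a slope of 0.23 ± 0.062 per 0.1 g (p = 0.0042 and adjusted p = 0.0536 in edgeR), and DESeq2 size factors took its adjusted p to 0.0406. GPAM had 0.17 ± 0.064 (adjusted p = 0.118), SCD 0.082 ± 0.028 (adjusted p = 0.0935) and DGAT2 -0.18 ± 0.064 (adjusted p = 0.0937). With transfer group as a covariate no member had an unadjusted p under 0.05 in the heart (background 3.51%).

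In the libraries labelled gonads the slopes lay between -0.077 (ACACA) and 0.17 (FADS1), with adjusted p of 0.875 or more, and no member had an unadjusted p under 0.05 (background 5.62%). The positive slopes of FADS1 and ELOVL6 there (0.17 ± 0.22 and 0.13 ± 0.19) turned to -0.038 and -0.069 without the library of fetus 1. In maternal blood 1 member had an unadjusted p under 0.05 (background 9.69%), ACLY, with 0.073 ± 0.031 per 0.1 g (p = 0.0357 and adjusted p = 0.488 in edgeR).

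The difference of slopes between organs was tested by the interaction of organ and weight in 1 fit. No member passed from liver to heart (7.67% of 19549 genes did) or from liver to the libraries labelled gonads (5.44%). At an unadjusted p under 0.05 there were 2 members from liver to heart, against 21.5% of genes. They were ACLY, with -0.21 ± 0.087 per 0.1 g (adjusted p = 0.147), and SREBF1, with 0.22 ± 0.10 (adjusted p = 0.205). From liver to the libraries labelled gonads there was none, against 16.6% of genes.

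**Figure D5:**
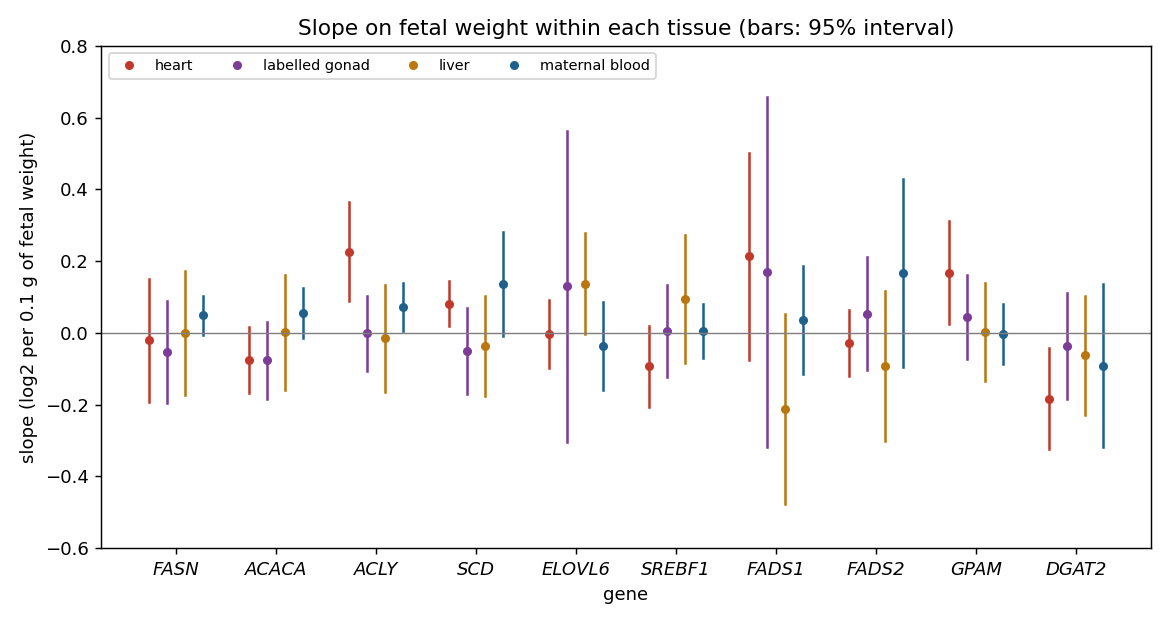
Slope of each gene on fetal weight (points, log2 per 0.1 g) with its 95% interval (bars), fitted separately in each tissue. The interval is clear of 0 for ACLY, SCD, GPAM and DGAT2 in heart and for ACLY in blood before adjustment for multiple tests, and wide for ELOVL6 and FADS1 in the libraries labelled gonads, where the library of fetus 1 was low.

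Another 49 genes of the pathway, in 7 lists also chosen with earlier results known, were counted in the same way. Of them, 23 were highest in the liver (background 22.9%), 8 in the libraries labelled gonads (14.8%) and 6 in the heart (11.0%), the latter counts being near their backgrounds. With library totals alone these counts were 15 (15.4% of all genes), 17 (8985 of 25087 genes) and 2 (1167 of 25087 genes). The 17 was again near its background. From liver to heart, 25 were higher and 11 lower in the liver, where 30.3% and 27.1% of all genes were. The median was 0.50 on the log2 scale against 0 over all genes, those with few counts included. Library totals alone gave 25 and 11 and DESeq2 size factors 29 and 11, with the shares of all genes not counted at these scalings.

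Among the suppliers of acetyl-CoA and NADPH, 3 of 6 were higher in the liver than the heart and 1 lower. ME1, the cytosolic malic enzyme, which yields NADPH, was at 8.13 to 15.8 CPM in the liver and 78.0 to 102 CPM in the heart (-2.99 ± 0.14, adjusted p = 3.2e-16). Every liver sample was below every heart sample in ME1.

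Of the 4 carboxylation partners, MID1IP1, a promoter of ACACA polymerisation, was higher in the liver (1.29 ± 0.20, adjusted p = 4.4e-06) and ACACB lower. ACACB, the paralog of ACACA whose malonyl-CoA restrains fatty acid oxidation at the mitochondria, was at 69.1 to 188 CPM in the heart and at 6.80 CPM or less in the liver (-5.18 ± 0.48, adjusted p = 3.9e-10). The carboxylases thus differed in opposite directions between these organs, with ACACA 2.56-fold higher in the liver.

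Of the 10 elongation genes, 6 were higher in the liver than the heart and 1, HACD2, lower (-0.76 ± 0.14, adjusted p = 2.7e-05). The largest value was that of ELOVL3 (2.92 ± 1.26, adjusted p = 0.0498), but it had no count in 4 of 7 liver samples and 6 of 9 heart samples, and without fetus 5 its sign turned (-1.47, adjusted p = 0.340). Of the 4 desaturation genes, 2 were higher in the liver, led by CYB5A, the cytochrome b5 that passes electrons to desaturases (2.84 ± 0.17, adjusted p = 5.1e-14). SCD5, the paralog of SCD, was lower (-1.56 ± 0.16, adjusted p = 3.2e-09), the opposite of SCD.

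Of the 10 regulators, 4 were higher in the liver and 3 lower, near the background of 30.3% and 27.1%. MLXIPL, which encodes the carbohydrate response factor ChREBP, had the largest difference, at 42.3, 121 and 148 CPM (lowest, median, highest) in the liver and 1.62, 2.62 and 3.63 CPM in the heart (5.38 ± 0.25, adjusted p = 2.4e-16). INSIG2, which holds SREBP precursors in the endoplasmic reticulum, was lowest (-1.62 ± 0.22, adjusted p = 3.6e-07). Of the 5 genes of fatty acid activation, 3 were higher in the liver and 1 lower, from ACSL5 (5.56 ± 0.21, adjusted p = 4.5e-18) to ACSL1 (-1.18 ± 0.14, adjusted p = 3.1e-08). Of the 10 genes of glycerolipid assembly, 6 were higher and 3 lower, from MOGAT1, a monoacylglycerol acyltransferase (2.64 ± 0.25, adjusted p = 8.0e-10), to GPAT3, which acts at the same step as GPAM (-2.79 ± 0.17, adjusted p = 9.4e-14).

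Along fetal weight, 1 of 47 tested pathway genes passed in the liver, near the background of 1.55%. ELOVL2, an elongase of long polyunsaturated fatty acids, fell by 0.50 ± 0.099 on the log2 scale per 0.1 g (adjusted p = 0.0423), with levels of 7.02, 5.79, 6.52, 6.89, 2.66, 2.21 and 1.86 CPM from the lightest to the heaviest sample. The ET_D9 samples were all below the ET_D7 samples, and within transfer groups the slope was -0.26 (adjusted p = 0.949). Leaving out any 1 of the 7 samples kept the slope between -0.53 and -0.46 but took the adjusted p over 0.05. In the heart 5 of 48 passed (background 6.77%), with IDH1 (0.21 ± 0.049, adjusted p = 0.0426), MID1IP1 (0.18 ± 0.048, adjusted p = 0.0494), ELOVL5 (0.36 ± 0.084, adjusted p = 0.0419) and ELOVL7 (0.47 ± 0.12, adjusted p = 0.0494) rising and TECR falling (-0.33 ± 0.081, adjusted p = 0.0432), and none of these 5 was called with transfer group as a covariate (adjusted p of 0.699 or more), a fit in which 0 of 16250 genes passed. Their slopes in that fit were 0.15 (IDH1), 0.11 (MID1IP1), 0.30 (ELOVL5), 0.54 (ELOVL7) and -0.27 (TECR), each of the same sign.

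Across the 25 organ samples, the genes whose log2 CPM were most like those of 3 members were listed as a description. The samples share organ and fetus, and no p is given. For SREBF1 they were PGPEP1, PC, E2F1, WDR81 and CEP95, with Pearson r of 0.984 to 0.988. For FASN they were NSD2, KRI1, B3GAT1, FAM193A and BPHL (r = 0.956 to 0.974), and for SCD they were C1QC, LYN, MTTP, ATP7B and ERMP1 (r = 0.957 to 0.962). None of these 15 genes belongs to the members or to the pathway lists.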

How the data were processed

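The deposited table holds raw read counts per gene. The authors trimmed the reads with Trimmomatic, aligned them to ARS-UCD1.3 with STAR 2.7.0b and counted them with featureCounts (Subread 2.0.3), after checks in FastQC 0.11.9. Organ libraries were made with a stranded mRNA kit and blood libraries with another stranded kit. One heart, 1 gonad and 2 liver samples were discarded for RNA quality before sequencing. Groups and fetal weights came from the labels. Replicates are separate fetuses or heifers.

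Gene symbols came from RefSeq (ARS-UCD2.0, names and neighbours only) and matched 31630 of 35092 identifiers, including the 10 members and all 49 pathway genes. The members and lists were chosen with earlier results of these data known. The liver libraries of fetuses 1 and 2 were averaged into 1 sample, a departure from the planned 8 libraries that was made after seeing the counts.

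The counts were analysed in R 4.3.3 with edgeR 4.0.16 (TMM factors, quasi-likelihood test, Benjamini-Hochberg adjustment over all genes tested). Organs were compared in 1 fit of 25 samples and the 25087 genes with a count in any of them. Weight was fitted within each tissue as a straight line, and in liver also as a natural cubic spline with 3 degrees of freedom, for genes that reached 10 counts in 4 or more libraries. All 10 members passed every filter on low counts. DESeq2 1.42.0 was an alternative. The scripts were tested on simulated counts. Organ libraries with the same number came from the same fetus, so a fit with fetus as a block was made. Deviations of the 20 pairs of samples tested correlated by -0.074 to 0.21 (median 0.022).

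All members were named, with the pathway genes of largest and smallest liver-to-heart difference in each list, those passing a slope test, and the 5 genes most like each of FASN, SCD and SREBF1. One pathway gene that this rule names is not reported here. No sequence was used here, and the planned promoter search was not run.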

Additional observations from a re-analysis of the deposited data

Results flagged for a closer look

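Dixon's ratio, the gap of an end sample to its nearest neighbour over the range of its group, was taken on log2 CPM. Of 40 groups of samples tested, 1 for each member and tissue, 3 held a sample that exceeded the critical ratio for their size. The levels below are plain CPM. Chance alone flags about 5% of such groups. In the libraries labelled gonads, fetus 1 was the lowest sample for ELOVL6 (2.697 CPM, nearest 15.0 CPM, ratio 0.705) and for FADS1 (3.41 CPM, nearest 21.5 CPM, ratio 0.657). Also among these libraries, fetus 7 was the highest for FADS2 (83.4 CPM, nearest 59.5 CPM, ratio 0.494).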

How the results depend on the processing

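Of the values answering a comparison, 218 were close to the first value under the alternatives and 35 were not. An unchanged count was taken as close, also where nothing was called. Among values of single genes, 1154 were counted as keeping direction and side of the threshold, 77 changed sign, 34 lost and 8 gained a call. Any value without an adjusted p was counted as kept, with no check of its sign. The cause was not tested for any of them. Library totals alone, the alternative with all 8 liver libraries and those that leave out a single doubted library were chosen after seeing the data.

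Between organs, requiring a log2 fold change over 1 left 4 members highest in liver (17.96% of all genes), and 1592 and 2063 genes highest in heart and in the libraries labelled gonads. Library totals alone gave 4, 1167 and 8985. ACACA, ELOVL6 and FADS2 were then at -0.54, -0.10 and -0.27 as liver minus the libraries labelled gonads. SCD and SREBF1 were at 0.38 and 0.87 as those libraries minus heart. FADS1 from liver to heart was 0.059 with DESeq2 size factors, 0.060 in DESeq2's test, 0.048 with 8 liver libraries and -0.41 to 0.17 leaving out 1 fetus. ELOVL3 was -1.33 in DESeq2's test and -1.47 to 4.16 leaving out 1 fetus. With fetus as a replicate block, 8 members were highest in liver and 2 in the libraries labelled gonads, GPAM gained its call between the other organs, genes whose slopes differed were 638 (liver to heart) and 615 (liver to gonads), and the GPAM slope difference from liver to gonads was 0.050.

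For the spline, members with an unadjusted p under 0.05 were 1 with DESeq2 size factors and 2 with DESeq2's test or 8 libraries, and all genes called were 1011 in DESeq2's test and 815 with library totals. For the liver slope, this member count was 1 with DESeq2 size factors, DESeq2's test, mitochondrial genes left out, 8 libraries or the library of fetus 1 left out, and 0 to 1 leaving out 1 fetus. All genes called were 145 with any count admitted, 617 in DESeq2's test, 0 with transfer group as covariate, 25 in ET_D7 only and 0 to 173 leaving out 1 fetus.

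Liver slopes that changed sign were FASN -0.0015 and ACACA -0.00012 with any count admitted; with the group covariate FASN -0.35, ACACA -0.44, ACLY 0.38, ELOVL6 -0.13, SREBF1 -0.42 and GPAM -0.29; and in ET_D7 only FASN -0.040, ACACA -0.33, ACLY 0.22, ELOVL6 -0.42, SREBF1 -0.35 and GPAM -0.43. Without fetuses 9 and 10, SCD was 0.091, FADS2 0.12 and DGAT2 0.070. Leaving out 1 fetus, the ranges were -0.034 to 0.10 (FASN), -0.032 to 0.090 (ACACA), -0.062 to 0.026 (ACLY), -0.062 to 0.035 (SCD), -0.13 to 0.032 (FADS2), -0.023 to 0.061 (GPAM) and -0.096 to 0.016 (DGAT2). With 8 libraries FASN was -0.0023, ACACA -0.013 and GPAM -0.022, without the library of fetus 2 ACACA was -0.0046 and GPAM -0.0033, without that of fetus 1 FASN was -0.00056, and with library totals ACLY was 0.028 and SCD 0.0011.

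In heart, DESeq2 size factors called 1 member (ACLY) and gave ELOVL6 0.013. The group covariate gave 0 members at an unadjusted p under 0.05 and 0 genes called, with FASN 0.062 and ELOVL6 0.077. Library totals gave 0 genes called, with FASN 0.11, ACACA 0.056, ELOVL6 0.13, SREBF1 0.041 and FADS2 0.11. In the libraries labelled gonads, ACLY was 0.0049 with DESeq2 size factors, the covariate gave ACLY 0.093, SCD 0.094, SREBF1 -0.12, FADS2 -0.14 and DGAT2 0.052, library totals gave SREBF1 -0.0067, and without fetus 1 ELOVL6 was -0.069 and FADS1 -0.038. In blood, library totals left 0 members at an unadjusted p under 0.05 and SREBF1 at -0.012. Slope differences from liver to gonads were -0.0059 (ACLY) and -0.014 (DGAT2) with DESeq2 size factors, -0.0031 (ELOVL6) with 8 libraries and 0.0059 (GPAM) with library totals, which gave -0.071 (FASN) and -0.013 (ACACA) from liver to heart. With 7 liver samples in 2 weight clusters, small slopes were not detectable.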
